A study of Mus musculus with 6 samples.

Results

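A list of 10 genes that mark platelets and megakaryocytes was followed through RNA-Seq of kidney CD11B+ cells. They were Ppbp, Pf4, Itga2b, Gp9, Gp1ba, Gp1bb, Clec1b, Treml1, Tubb1 and Selp, 10 of the 46603 genes of the count table, and each symbol was found on 1 line of it. The list was chosen by readout, because Ppbp was among the largest falls between the genotypes in these same libraries, so the genotype differences of the 10 genes are given as a description, without a test. There were 3 libraries from PTEC DN RAR mice, whose genotype was PEPCK CRE+ with Rosa26-LSL-RARaT403X. Another 3 came from Cre- control mice, which were PEPCK CRE- with the same Rosa26 allele. This allele, carried by both genotypes and bred to homozygosity in PTEC DN RAR mice, gives a truncated dominant-negative RARα only after Cre recombination, and PEPCK-Cre is active in proximal tubular epithelial cells (PTECs), so Cre was aimed at the tubule and not at the sorted cells. All mice were males aged 10 to 12 weeks that had undergone bilateral ischemia-reperfusion injury (IRI-AKI) with 28 minutes of clamping, and kidneys were taken on day 3 after perfusion with saline. Cells were held back with beads against CD11B, the integrin alpha M chain of monocytes, macrophages and granulocytes, without a further gate against other cells. The PEPCK-Cre line had a mixed genetic background, and whether the mice compared were littermates is not given in the sources used here.

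Platelets are cell fragments without a nucleus, and the messenger RNA they carry comes from the megakaryocyte in the bone marrow. They bind injured vessel walls through the glycoprotein Ib-IX-V complex (Gp1ba, Gp1bb, Gp9, Gp5) and fibrinogen through the integrin of Itga2b and Itgb3, and on activation they release alpha granules that hold the chemokines PF4 (Cxcl4) and PPBP (the precursor of Cxcl7) and bring P-selectin (Selp) to the surface, where it binds PSGL-1 on leukocytes. In injured kidneys platelets stick to endothelium and to leukocytes. Several of these genes are also used outside the lineage: Pf4 is known from tissue macrophages, Selp from endothelium, Itga2b from early blood progenitors and Clec1b from some myeloid cells.

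Gene counts per library ranged from 29318041 in control 2 to 46517005 in DN RAR 3, and control 1 was the deepest control with 40741507. Levels are given as CPM, counts scaled to 1000000 per library after TMM adjustment of the library sizes, and 3 counts corresponded to between 0.0636 and 0.101 CPM. Such floors cover counting error only. CD11B itself (Itgam) measured between 1737 and 1995 CPM in controls and between 980 and 1366 CPM in PTEC DN RAR libraries, and Csf1r, the receptor for macrophage colony-stimulating factor, between 3097 and 3591 CPM over all 6. Rara measured between 35.3 and 45.4 CPM in controls and between 30.7 and 37.6 CPM in PTEC DN RAR libraries, and the table has no line of its own for the transgene. Mitochondrial transcripts took 5.03% to 8.77% of counts in controls and 10.38% to 12.08% in PTEC DN RAR libraries. Markers of PTECs summed to between 447 and 628 CPM in controls and to between 1817 and 2759 CPM in PTEC DN RAR libraries, so tubular RNA moved with genotype in every comparison below. Its part in the results was not tested.

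The sequences upstream of 4 of the genes are shown first, since the 2 chemokine genes and Selp were the members with the highest levels, while Gp1ba, which encodes the von Willebrand factor receptor chain that marks platelets most strictly, was close to 0. Each run is the 250 bases before the RefSeq start on GRCm38.p6, written 5′ to 3′ on the strand of the gene. Capitals mark 3 short motifs, each searched on both strands, with overlaps allowed within and between motifs. The first, GATAA, is the core of sites for GATA factors. The second, GGAAG, is a core of sites for ETS factors such as Fli1. The third, TATAAA, is the TATA box.
Ppbp (chr5:90768268-90768517, plus strand): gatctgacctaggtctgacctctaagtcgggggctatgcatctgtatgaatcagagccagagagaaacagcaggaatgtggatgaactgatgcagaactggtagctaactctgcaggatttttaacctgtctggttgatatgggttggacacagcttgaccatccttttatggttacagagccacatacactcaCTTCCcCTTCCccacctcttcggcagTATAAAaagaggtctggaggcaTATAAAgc
Pf4 (chr5:90772185-90772434, plus strand): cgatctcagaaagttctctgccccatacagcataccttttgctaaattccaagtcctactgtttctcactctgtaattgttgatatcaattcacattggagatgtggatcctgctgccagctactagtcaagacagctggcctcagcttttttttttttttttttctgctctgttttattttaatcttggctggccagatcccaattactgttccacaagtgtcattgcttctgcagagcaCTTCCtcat
Selp (chr1:164115014-164115263, plus strand): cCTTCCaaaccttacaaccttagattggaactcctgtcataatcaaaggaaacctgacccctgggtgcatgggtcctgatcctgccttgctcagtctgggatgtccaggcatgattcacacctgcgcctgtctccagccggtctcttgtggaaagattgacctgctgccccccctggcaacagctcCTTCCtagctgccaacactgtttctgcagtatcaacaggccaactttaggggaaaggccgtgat
Gp1ba (chr11:70638872-70639121, plus strand): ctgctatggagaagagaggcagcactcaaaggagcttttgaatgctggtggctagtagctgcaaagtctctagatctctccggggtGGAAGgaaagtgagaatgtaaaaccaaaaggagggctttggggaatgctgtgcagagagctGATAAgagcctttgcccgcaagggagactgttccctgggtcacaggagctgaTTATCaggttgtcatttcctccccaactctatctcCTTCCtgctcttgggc
GATAA was found upstream of 3 of the 10 genes (Gp9, Gp1ba and Clec1b) and in 22.6% of 32851 RefSeq promoters of the same length. GGAAG stood upstream of 9 of the 10, all but Clec1b, and in 64.1% of promoters. TATAAA was seen upstream of Ppbp and Clec1b and in 12.4% of promoters. Ppbp had 2 copies of TATAAA near its start. It also had 2 copies of the ETS core on the other strand, Pf4 had 1 and Selp had 2, and Gp1ba had both the GATA and the ETS core on both strands. These are matches of letters, and no binding was measured.

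The levels of the 10 genes differed widely, and no platelet reference was compared. Per kilobase of exon, Pf4 was highest in controls, at 461 CPM per kb, followed by Ppbp at 24.9 and Selp at 2.22, and these 3 did not overlap each other or the gene below them over the control libraries. The other 7 genes lay between 0.0392 CPM per kb for Gp1ba and 0.316 for Tubb1, and in this part of the order each gene overlapped its neighbour. In PTEC DN RAR libraries Pf4 was again highest at 53.7 CPM per kb and Gp1ba lowest at 0.0205. Ppbp, at 1.22 CPM per kb, then overlapped Selp at 0.565, and Selp overlapped Clec1b at 0.422.

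**Figure D1:**
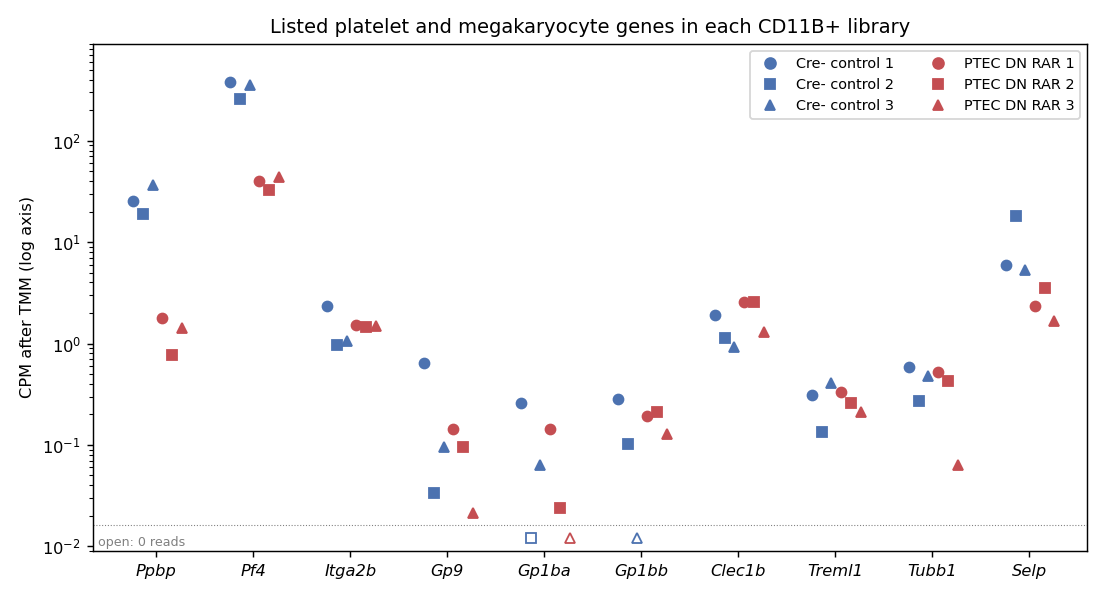
CPM after TMM of each of the 10 genes (columns) in each library (points, shape by replicate number, blue for Cre- controls and red for PTEC DN RAR), on a log axis with libraries of 0 counts drawn open at the bottom edge. Ppbp and Pf4 are lower in all 3 PTEC DN RAR libraries than in any control, Selp is lower too with control 2 far above the rest, and the points of the other 7 genes overlap between genotypes.

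The list is named here by its genes, and whether platelets were the source of these transcripts was not tested. The receptor genes that only the megakaryocyte lineage is known to use were at or near 0. Gp9, the glycoprotein IX chain, had 25, 1 and 3 counts in controls and 6, 4 and 1 in PTEC DN RAR libraries. Gp1ba, the glycoprotein Ib alpha chain, had 10, 0 and 2 counts in controls and 6, 1 and 0 in PTEC DN RAR libraries, and a count of 0 allows up to 0.101 CPM in control 2 and up to 0.0636 CPM in DN RAR 3. Gp1bb, the beta chain, had 11, 3 and 0 counts in controls and 8, 9 and 6 in PTEC DN RAR libraries. Its exons share 1902 bases with Sept5 on the same strand and 867 with Gm49601, so reads there are not assigned and its counts are uncertain. These 3 genes did not pass the filter on low counts, their genotypes overlapped, and no fold change is given for them.

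The same was seen for Gp5 and for Gp6, the collagen receptor. When these 5 receptor genes were summed, a set chosen after their values were seen, they had 56, 5 and 10 counts in controls and 24, 17 and 7 in PTEC DN RAR libraries, or 1.43, 0.168 and 0.317 CPM against 0.573, 0.401 and 0.148 CPM. Control 1 was highest, and control 2 and DN RAR 3 were lowest. The 4 adult hemoglobin genes, transcripts of red cells that share the bloodstream with platelets, were ordered in much the same way, with 12.9, 1.38 and 4.4 CPM in controls and 5.04, 4.1 and 1.67 CPM in PTEC DN RAR libraries. For each count on the 5 receptor genes there were 8.96, 8.2 and 13.9 hemoglobin counts in controls and 8.79, 10.2 and 11.3 in PTEC DN RAR libraries, so this ratio varied less than either sum, and neither sum separated the genotypes. The ratio of control 2 rests on 5 receptor counts. Gp1bb, whose counts are uncertain, gave 3 of these 5, 9 of the 17 in DN RAR 2 and 6 of the 7 in DN RAR 3. The small variation of the ratio thus rests in part on Gp1bb, and a shared source of these transcripts was not tested. Hemoglobin counts are uncertain, since near-identical copies lose reads that align to more than 1 place.

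Ppbp (ENSMUSG00000029372, chr5:90768518-90770063, plus strand, GRCm38) encodes a precursor that is cut to the neutrophil attractant Cxcl7. It measured 25.6, 19 and 36.4 CPM in controls and 1.77, 0.778 and 1.42 CPM in PTEC DN RAR libraries. All 3 PTEC DN RAR libraries were below all controls, and the lowest control exceeded the highest PTEC DN RAR library by over 10 times. The means were 27 ± 8.76 CPM (SD, n = 3) and 1.32 ± 0.502 CPM (SD, n = 3), which is 20.4-fold lower, and the fit gave a log2 fold change of -4.35 (standard error 0.33). This was the third lowest log2 fold change of the 15440 genes fitted. In bulk RNA, fewer cells of a type and less RNA per cell cannot be told apart, for this gene or any other below.

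Pf4 (ENSMUSG00000029373, chr5:90772435-90773383, plus strand) encodes a chemokine that binds heparin and is stored with PPBP in alpha granules. It lies next to Ppbp. It measured 383, 258 and 357 CPM in controls and 39.9, 32.3 and 44 CPM in PTEC DN RAR libraries, with no overlap and little spread within either genotype. Means of 332 ± 65.7 CPM (SD, n = 3) and 38.7 ± 5.91 CPM (SD, n = 3) give an 8.59-fold lower level, with a log2 fold change of -3.10 (standard error 0.18), the sixth lowest of all genes fitted. Set against Csf1r, there were 10.7, 7.84 and 10.7 Pf4 counts per 100 Csf1r counts in controls and 1.13, 0.931 and 1.42 in PTEC DN RAR libraries, so the fall was of the same order relative to this macrophage receptor, whose own log2 fold change was -0.02 (standard error 0.11).

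The 2 chemokine genes did not keep a fixed ratio to each other. There were 6.68, 7.37 and 10.2 Ppbp counts per 100 Pf4 counts in controls and 4.44, 2.41 and 3.23 in PTEC DN RAR libraries. Pf4 also fell against Itga2b. There were 6.09, 3.77 and 2.93 Itga2b counts per 1000 Pf4 counts in controls and 38.4, 44.5 and 33.8 in PTEC DN RAR libraries, which is several fold more. Neither ratio overlapped between the genotypes.

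Selp (ENSMUSG00000026580, chr1:164115264-164150026, plus strand) encodes P-selectin, the adhesion molecule of alpha granules and of endothelial storage bodies. Its level was 5.99, 18.1 and 5.29 CPM in controls and 2.34, 3.49 and 1.65 CPM in PTEC DN RAR libraries. The genotypes did not overlap, and control 2 was over 3 times as high as either of the other controls. Means were 9.79 ± 7.19 CPM (SD, n = 3) and 2.49 ± 0.927 CPM (SD, n = 3), and the log2 fold change was -1.97 (standard error 0.49). Without control 2 it was -1.22. Exons of Selp share 186 bases with Gm16587 and 438 with Gm16548, both on the opposite strand. The strand setting of the counting is not given in the sources used here, so reads in the shared bases cannot be told apart. Gm16587 had at most 11 counts of its own in any library and Gm16548 at most 10, against 78 to 539 for Selp.

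The other 4 genes that were fitted overlapped between genotypes. Itga2b, the integrin αIIb chain, measured 2.33, 0.973 and 1.05 CPM in controls and 1.53, 1.44 and 1.48 CPM in PTEC DN RAR libraries, with a log2 fold change of 0.02 (standard error 0.35) whose sign changed with the scaling. Control 1 was the highest library and the other controls the lowest. Clec1b, the podoplanin receptor CLEC-2, measured 1.9, 1.14 and 0.919 CPM in controls and 2.58, 2.59 and 1.29 CPM in PTEC DN RAR libraries, with a log2 fold change of 0.69 (standard error 0.37). Its estimate was the highest of the fitted members, although DN RAR 3 lay below control 1, and 184 bases of its exons are shared with Clec9a. Treml1, a receptor of alpha granule membranes, measured between 0.134 and 0.412 CPM in controls and between 0.212 and 0.334 CPM in PTEC DN RAR libraries. Tubb1, the beta tubulin of the platelet marginal band, measured 0.589, 0.268 and 0.475 CPM in controls and 0.526, 0.424 and 0.0636 CPM in PTEC DN RAR libraries. The value of DN RAR 3 rests on 3 counts. The log2 fold changes of Treml1 and Tubb1 were -0.10 (standard error 0.47) and -0.43 (standard error 0.64), both within their error of 0.

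Of the 10 genes, 7 passed the filter on low counts. Ppbp, Pf4 and Selp were the ones whose PTEC DN RAR libraries all lay below the controls, which held for 24.2% of all genes, and 0 of the 7 had all PTEC DN RAR libraries above the controls, which held for 29.2%. The median log2 fold change of the 7 was -0.43 and that of all genes was 0.04. Since the contrast chose the list, nothing is read from these counts.

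Other platelet and megakaryocyte genes were called in both directions. Of 51 other genes of the lineage, 44 were tested, of which 8 were lower, 14 were higher and 22 did not pass, with a median log2 fold change of 0.14, beside 17.1% lower and 23.6% higher among all genes. With scaling on pan-leukocyte genes, 6 of the platelet genes were lower and 16 higher, while the number of all genes that were lower went from 2636 to 694 and the number higher from 3640 to 4895. The number of platelet genes higher fell to 9 without control 2, to 8 without control 3 and to 9 without DN RAR 3. All adjusted p-values here are from edgeR's quasi-likelihood test over 15440 genes, with a threshold of 0.05. The 20 called genes with the largest absolute log2 fold change are named by role.

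Of 9 granule genes tested, 2 were lower and 3 were higher. F13a1, the A chain of the fibrin cross-linking factor XIII, measured 586, 511 and 722 CPM in controls and 118, 104 and 136 CPM in PTEC DN RAR libraries (log2 fold change -2.35, standard error 0.15, adjusted p = 0.000134). Thbs1, the matrix protein thrombospondin 1, measured 1714, 1108 and 1996 CPM in controls and 436, 350 and 533 CPM in PTEC DN RAR libraries (log2 fold change -1.87, standard error 0.23, adjusted p = 0.000691). Both had no overlap between genotypes, and both are also known from monocytes and macrophages. The count of F13a1 per Pf4 count was 1.53, 1.98 and 2.02 in controls and 2.96, 3.21 and 3.09 in PTEC DN RAR libraries, so F13a1 fell less than Pf4. Vwf, the ligand of the glycoprotein Ib complex, rose from 9.09, 7.05 and 5.96 CPM to 10.9, 14.1 and 13 CPM (log2 fold change 0.78, adjusted p = 0.00981). The protease inhibitor Serpine2 (1.36) and the Tie2 ligand Angpt1 (1.24) rose on the log2 scale as well. F5, coagulation factor V, measured 11, 44.1 and 16.3 CPM in controls and 12.1, 16.1 and 11.8 CPM in PTEC DN RAR libraries and did not pass (log2 fold change -0.83, adjusted p = 0.161).

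Among 10 receptors tested, 1 was lower and 2 were higher. Tbxa2r, the thromboxane receptor, rose by 1.90 on the log2 scale (standard error 0.41, adjusted p = 0.00753) from low levels of 0.268 to 0.589 CPM in controls to 1.15 to 2.06 CPM. Itgb3, the partner chain of Itga2b, rose from 2.95, 2.48 and 3.71 CPM to 5.35, 4.76 and 4.9 CPM (log2 fold change 0.72, adjusted p = 0.0186), and also pairs with the αV chain of macrophages and endothelium. It lost its call without control 2 or DN RAR 1. The lower one was P2ry12, the ADP receptor, at -0.60 (adjusted p = 0.00119), which is named after its value was seen. Of 11 signalling genes tested, 4 were lower and 3 were higher. Rgs18, a regulator of G protein signalling in platelets and myeloid cells, fell from 14.1, 14 and 16.4 CPM to 4.32, 5.18 and 4.87 CPM (log2 fold change -1.63, standard error 0.14, adjusted p = 0.000201). Thromboxane synthase (Tbxas1) and the protein kinase A subunit Prkar2b both changed by -0.61, and Prkar2b lost its call with pan-leukocyte scaling. The higher ones were the nitric oxide receptor chains Gucy1b1 (1.13) and Gucy1a1 (1.04) and the lipoxygenase Alox12 (0.96). Alox12 lost its call in 5 of 14 alternatives, each of them leaving out 1 library, and Gucy1b1 without control 3.

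Of 5 cytoskeletal and membrane genes tested, 0 were lower and 4 were higher, namely the caveolar protein gene Cavin2 (log2 fold change 1.32), Tspan9 (1.25), the alpha tubulin Tuba8 (1.17) and the smooth muscle and platelet myosin light chain Myl9 (0.77). Tuba8 lost its call without any 1 of the 6 libraries, with DESeq2 and without the filter, and Myl9 lost it without control 2, control 3 or DN RAR 3. Tubb1, the member of this group in the list of 10, had the value of -0.43 given above. Of 9 transcription factors tested, Fli1, an ETS factor of megakaryocytes and many leukocytes, was lower, with 82.9, 83.9 and 87 CPM in controls and 52.6, 51.8 and 47.8 CPM in PTEC DN RAR libraries (log2 fold change -0.74, adjusted p = 0.000387). Gata2 (1.16) and the GATA cofactor Zfpm1 (0.61) were higher. Gata2 lost its call without control 2, control 3, DN RAR 1 or DN RAR 3, and Zfpm1 without control 3 or DN RAR 3. Gata1, the factor that defines the megakaryocyte and erythroid lineages, had at most 0.128 CPM in any library and was at 0 in 4 of 6, and Gfi1b had at most 0.57 CPM.

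**Figure D2:**
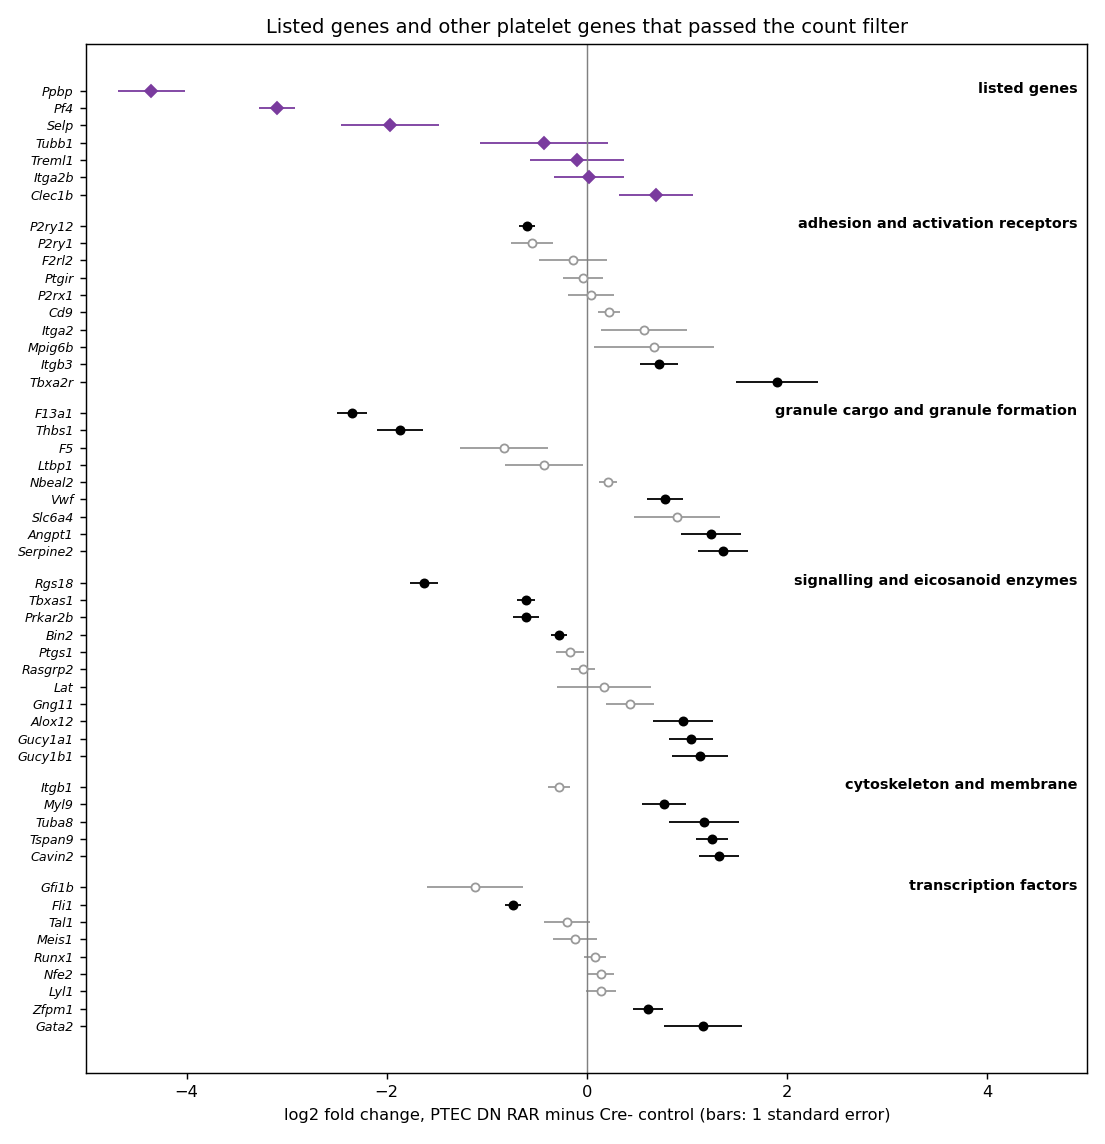
Log2 fold change (PTEC DN RAR minus Cre- control, bars 1 standard error) of the 7 listed genes that passed the filter (purple diamonds, no test) and of 44 other platelet genes grouped by role, filled black where the adjusted p was under 0.05 and open grey where it was not. Ppbp, Pf4 and Selp lie left of 0 with F13a1, Thbs1 and Rgs18, whereas the cytoskeletal and membrane genes other than Itgb1 lie right of 0.

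Several of the higher genes (Vwf, Cavin2, Tspan9, Gucy1a1, Gata2) are also genes of vessel walls, and markers of other cell types moved with genotype. Endothelial markers were higher in 10 of 10 tested and lower in 0, and summed to 136, 133 and 93.8 CPM in controls and to 286, 353 and 314 CPM in PTEC DN RAR libraries. Selp went the other way from these although it is an endothelial gene. Its neighbour Sele, the endothelial E-selectin, rose from 0.307, 0.503 and 0.253 CPM to 1.43, 1.74 and 0.826 CPM. The part of endothelial RNA in these results was not tested.

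Myeloid lists differed in direction. Markers of infiltrating monocytes were lower in 7 of 8 tested and higher in 0, with a median log2 fold change of -0.91, and summed to between 3161 and 3634 CPM in controls and between 1492 and 1572 CPM in PTEC DN RAR libraries. Neutrophil markers were lower in 5 of 10 and higher in 0, with sums of 471 to 849 CPM and 299 to 426 CPM, and Ly6g had at most 1.55 CPM. Resident macrophage markers were lower in 2 of 12 and higher in 3 (Cd74, Cd81 and H2-Aa), with sums of 32958 to 39929 CPM and 43309 to 60559 CPM. The part of a changed myeloid make-up was not tested.

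Red cell markers gave 0 lower and 1 higher of 5 tested, the 1 being Slc4a1, which is also expressed by intercalated cells of the kidney (51.7, 29.8 and 62 CPM against 11.2, 6.78 and 5.99 CPM in controls). Mast cell and basophil markers other than Kit were at or near 0, with at most 0.167 CPM each. Kit, a receptor that cells other than mast cells also carry, was the 1 gene of this list that was tested and was higher, with 13.2, 8.62 and 8.62 CPM in controls and 19.2, 16.3 and 27 CPM in PTEC DN RAR libraries (log2 fold change 1.03, adjusted p = 0.00825). PTEC markers were higher in 12 of 12 tested, and the 20 pan-leukocyte reference genes were lower in 6 and higher in 0, with a median log2 fold change of -0.19.

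Markers of peritoneal macrophages separated control 2 from the other libraries. Their sum was 75.1, 277 and 81 CPM in controls and 55, 48.4 and 32.9 CPM in PTEC DN RAR libraries, and 3 of 10 were lower and 0 higher, namely Prg4 (-3.69), Alox15 (-3.04) and Serpinb2 (-2.35). Prg4, the lubricin gene, measured 19.2, 101 and 28 CPM in controls and 7.02, 3.72 and 0.784 CPM in PTEC DN RAR libraries. The defining factor Gata6 measured 0.512, 3.19 and 0.158 CPM in controls and between 0.55 and 0.613 CPM in PTEC DN RAR libraries. Selp and F5 were likewise highest in control 2, Ppbp and Pf4 lowest there among controls. The part of such cells in the level of Selp was not tested, and the fall without control 2 is the value given above.

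**Figure D3:**
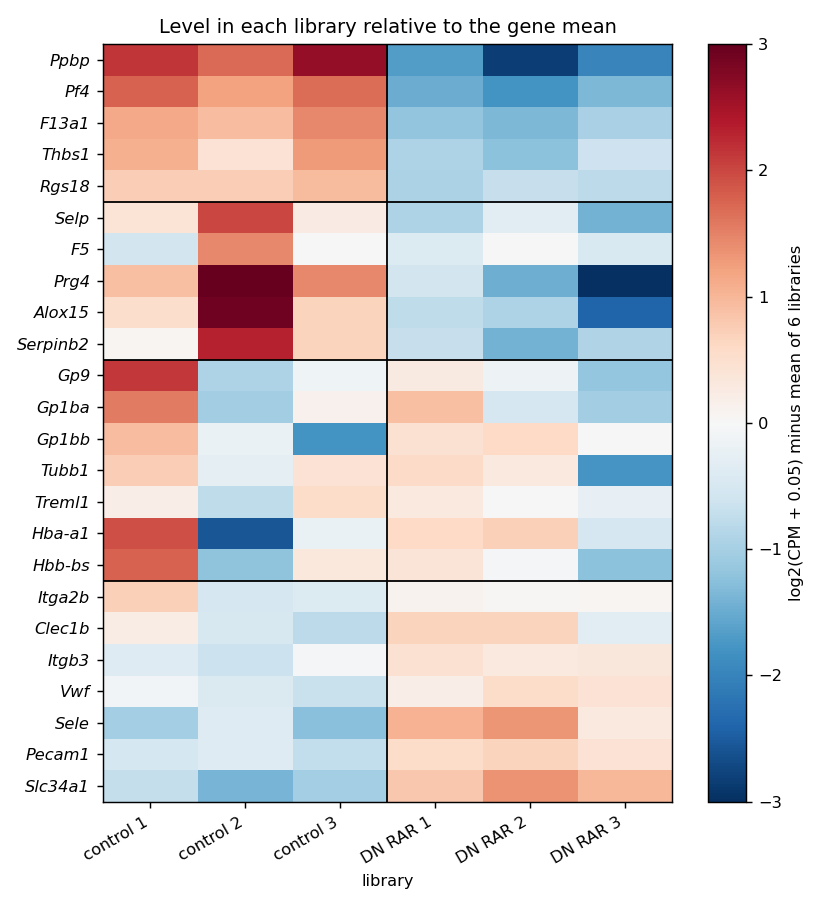
Log2(CPM + 0.05) of each gene in each library minus its mean over the 6 libraries, coloured from blue (lower) to red (higher) and capped at 3 in either direction, with genes grouped after their values were seen. The top block (Ppbp, Pf4, F13a1, Thbs1, Rgs18) is high in all controls, the second block (Selp with peritoneal macrophage genes) peaks in control 2, Gp9, Gp1ba and the hemoglobin genes peak in control 1, and the bottom block shows Itga2b and Clec1b beside endothelial and tubular genes.

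The genes most like each member over the 6 libraries were sought by the root mean square difference of log2 CPM, centred on each gene's mean, among 13021 genes with a mean of at least 1 CPM. The genes near Ppbp included Hprt (0.50), Pf4 itself (0.69), Syn1 (0.77) and Gpnmb (0.79). For Pf4 the nearest were the macrophage glycoprotein gene Gpnmb (0.24), the metalloproteinase Mmp19 (0.26), coagulation factor VII (F7, 0.36), the folate receptor Folr2 (0.38) and F13a1 (0.40). Gpnmb measured 263, 134 and 256 CPM in controls and 33.6, 25.7 and 26.2 CPM in PTEC DN RAR libraries. No gene of platelet receptors was among the genes nearest to either chemokine. Since these genes also fell between the genotypes, the likeness rests largely on that contrast.

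Itga2b was most like Gm6204 (0.08), Ceacam19 (0.12), Avpi1 (0.13), Gm10275 (0.13) and 9330160F10Rik (0.15), genes that did not differ between genotypes and shared its high value in control 1. For Selp, which was added to this search after its values were seen, the nearest were Fcna (0.12), Padi4 (0.25), Slpi (0.40), Lbp (0.40) and Fn1 (0.47). All 5 were highest in control 2, as Selp was. Fcna, the ficolin gene, measured 12, 28.9 and 9.95 CPM in controls and 4.68, 7.02 and 2.88 CPM in PTEC DN RAR libraries. The lower members thus had different library patterns, Ppbp and Pf4 with control 2 the lowest control and Selp with control 2 the highest.

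Pf4 starts 3.9 kb after the start of Ppbp in a block of CXC chemokine genes on chromosome 5. Within 250 kb, 6 other protein-coding genes were tested, of which 3 were lower, 2 were higher and 1 did not pass, beside 17.1% lower and 23.6% higher among all genes. The lower ones were the neutrophil attractants Cxcl3, Cxcl1 and Cxcl2. Cxcl3 measured 20.3, 17.3 and 27.1 CPM in controls and 5.47, 2.1 and 5.62 CPM in PTEC DN RAR libraries (log2 fold change -2.29, standard error 0.34, adjusted p = 0.00148). Cxcl2 measured 378, 409 and 467 CPM in controls and 147, 100 and 167 CPM in PTEC DN RAR libraries (log2 fold change -1.60, standard error 0.18, adjusted p = 0.000455). Cxcl1 fell by 1.47 (standard error 0.27, adjusted p = 0.00346). Cxcl5 was not tested, with at most 0.475 CPM in controls and 0.0478 CPM in PTEC DN RAR libraries. The higher genes, Afm (2.33) and Rassf6 (1.74), lie on one side of the chemokines, and Mthfd2l on the other side did not pass (0.18). These chemokine genes are paralogs and can lose reads to each other in counting.

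**Figure D4:**
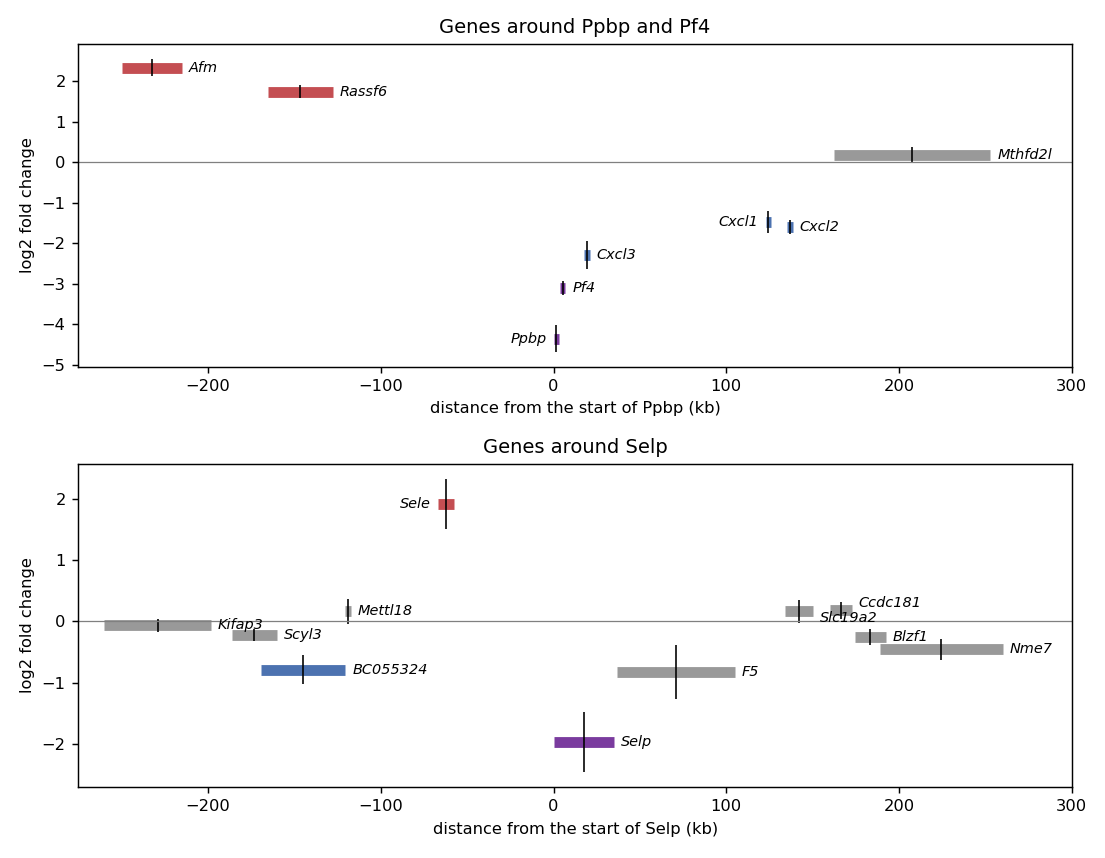
Log2 fold change (PTEC DN RAR minus Cre- control, black bars 1 standard error) of protein-coding genes that were tested and are reported here against distance in kb from the start of Ppbp (top) and of Selp (bottom), with each coloured bar drawn over the length of its gene and no shorter than 3 kb. Purple marks members, blue genes that were lower, red genes that were higher and grey genes that did not pass; the 5 chemokine genes lie below 0, and Selp lies below 0 while Sele lies above 0.

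Selp stands near the E-selectin gene Sele and the factor V gene F5 on chromosome 1. Among protein-coding genes within 250 kb, BC055324 was lower beside Selp (log2 fold change -0.79, standard error 0.24, adjusted p = 0.0283), and 8 genes, F5 included, did not pass. The genotypes overlapped for BC055324, with 6.14 CPM in DN RAR 1 and 6.07 CPM in control 1. Of all genes, 17.1% were lower and 23.6% higher. Sele rose by 1.91 on the log2 scale (standard error 0.41, adjusted p = 0.00706). The neighbours Selp and Sele thus had opposite directions.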

How the data were processed

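RNA-Seq was performed on polyA RNA from kidney CD11B+ cells, with 3 libraries from PTEC DN RAR and 3 from Cre- control mice. The authors deposited a single table of read counts by Ensembl identifier, not normalized. Their processing notes name STAR 2.5.0a, HTSeq 0.6.1, edgeR, limma and GRCm38. Reads with several alignments (42.9% to 47.8% of alignments per library) are not in the gene counts, which lowers values of near-identical copies. Of 46612 lines, 9 repeated an identifier and were collapsed, and 27 symbols turned into dates were restored.

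Genes with low counts were removed by filterByExpr and library sizes were adjusted by TMM. The quasi-likelihood F test of edgeR 4.0.16 (R 4.3.3) was run on the 15440 genes left, p-values were adjusted by Benjamini-Hochberg over all of them, and the threshold was 0.05. The script was tested on simulated data. Standard errors were derived from the log2 fold change and its F statistic (ratio of the first to the root of the second). Levels per kilobase use GENCODE M21 exons. Sequences are from RefSeq, where all 10 genes were matched, and were searched over 250 bases upstream.

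The members and all gene lists (other platelet, erythroid, resident and peritoneal macrophage, infiltrating monocyte, neutrophil, mast cell and basophil, endothelium, proximal tubule and pan-leukocyte) were chosen with earlier results of these data known. All listed symbols but Ahsp were matched, 4 of the platelet symbols through older names. Genes named are the 10 members, the 20 called platelet genes of largest change, the 5 genes most like Ppbp, Pf4 and Itga2b, genes within 250 kb of Ppbp, Pf4 and Selp, and markers beside a result. Each library carries its own code in the labels, taken here to mean a separate mouse, and p-values measure the spread between these libraries. No libraries within a genotype agreed within sampling noise. Alternatives used DESeq2 1.42.0, limma 3.58.1 (voom), no filter, a minimum of 10 counts in each library, unscaled library sizes, DESeq2 size factors, pan-leukocyte scaling, a replicate block and leaving out each library. Tables and figures were made with Python 3.11.15, pandas 2.3.3, numpy 2.4.6 and matplotlib 3.10.9. Some genes of the lists and rules above are not reported here by name.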

Additional observations from a re-analysis of the deposited data

How the results depend on the processing

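Ppbp (-4.61 to -4.08), Pf4 (-3.30 to -2.88) and Selp (-2.32 to -1.22, the last without control 2) had these log2 fold changes over the 14 alternatives, as a description, and Clec1b ranged from 0.45 to 1.06. Itga2b, near 0 at 0.02, became -0.02 with DESeq2 and with DESeq2 size factors and -0.01 without the filter. It ranged from -0.24 to 0.55 when libraries were left out in turn. Treml1 became 0.10 with pan-leukocyte scaling and ranged from -0.46 to 0.19 without single libraries, and Tubb1 ranged from -0.90 to 0.03, the last without DN RAR 3. Scaling on pan-leukocyte genes moved the median of all genes from 0.04 to 0.25, and 694 genes were then lower, against 2636, and 4895 higher, against 3640. DESeq2 called 3278 lower. The number of other platelet genes called higher ranged from 8 to 16 without single libraries, with 9 without control 2, 8 without control 3 and 9 without DN RAR 3, while 7 to 10 were lower. Tuba8 lost its call in 9 alternatives, Alox12 in 5, Gata2 in 4, Myl9 in 3, Itgb3, Zfpm1 and Bin2 in 2 each, and Prkar2b and Gucy1b1 in 1 each. The causes were not tested.

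The correlations of same-numbered deviations were -0.01, 0.21 and 0.03, and those of other pairs ran from -0.18 to 0.15. With 3 libraries per genotype these values cannot decide whether replicate numbers pair the libraries. With a replicate block, 2606 genes were lower and 3612 higher, Ppbp was at -4.36, Pf4 at -3.09, Selp at -1.82, Itga2b at 0.12, and 13 other platelet genes were higher, Tuba8 no longer among them.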

Other observations

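Because F13a1, Thbs1 and F7 were lower and F7 was among the genes most like Pf4, 15 genes of coagulation and fibrinolysis were looked at, a list chosen after these values had been seen. By edgeR's quasi-likelihood test, 6 were lower, 2 were higher and 7 did not pass, with a median log2 fold change of -0.26. Among all genes tested, 17.1% were lower and 23.6% higher, and F13a1, Thbs1 and F7, which prompted the list, are 3 of the 6 lower. F7, coagulation factor VII, measured 11.6, 7.35 and 11.8 CPM in controls and 2.27, 1.44 and 1.44 CPM in PTEC DN RAR libraries (log2 fold change -2.58, adjusted p = 0.000324). F10 (-0.82), the urokinase receptor Plaur (-0.86) and the plasminogen activator inhibitor Serpinb2 (-2.35, highest in control 2) were lower as well. Tissue plasminogen activator (Plat, 1.15) and Tfpi2 (1.23) were higher. Tissue factor (F3, -0.03) and thrombomodulin (Thbd, 0.04) did not pass. All 3 PTEC DN RAR libraries lay below all controls for 6 of the 15 genes, the same 6 that were called lower, and for 24.2% of all genes.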
